A study of Mus musculus with 12 samples.

Results

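Transcripts of 9 Toll-like receptors (Tlr1, Tlr2, Tlr3, Tlr4, Tlr6, Tlr7, Tlr8, Tlr9 and Tlr13) and of their shared adaptor Myd88 were examined in mouse airway eosinophils. These 10 genes were taken by symbol from a deposited table of 39666 genes, and all 10 were found. They fall into 4 receptors of the cell surface, 5 of the endosome and 1 adaptor. The cells came from wild-type C57BL/6 mice aged 8 to 12 weeks with allergic airway inflammation, and the controls shared that treatment. The mice had received 20 µg ovalbumin in 4 mg alum on days 0 and 7, breathed a 1% ovalbumin aerosol for 40 minutes a day on days 16 to 18, and were killed on day 19. Lavage fluid was pooled over mice, and from each of 6 pools eosinophils (gated on Siglec-F and CD11b among other markers) were split by flow cytometry by surface TREM-1. Both fractions of each pool were sequenced, as 6 TREM-1+ and 6 TREM-1- libraries. TREM-1 is a receptor of myeloid cells, known for amplifying signals from Toll-like receptors. No allergen-free mice were part of these 12 libraries, and each library is the mean over a pool of animals.

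Toll-like receptors are membrane proteins whose outer part binds microbial molecules and whose inner TIR domain gathers adaptors. Receptors at the cell surface recognise lipopeptides (Tlr2 with Tlr1 or Tlr6) and lipopolysaccharide (Tlr4). Receptors of the endosome recognise nucleic acids and reach that compartment with the chaperone Unc93b1. All mouse members except Tlr3 signal through MyD88, which assembles IRAK kinases and leads to NF-kB and interferon regulatory factors, while Tlr3 uses TRIF, the product of Ticam1. Interleukin-1 family receptors, among them the interleukin-33 receptor of eosinophils, use MyD88 too.

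In TREM-1+ eosinophils Myd88 fell and Tlr13 and Tlr2 rose, each in 6 of 6 lavages, while Tlr4 and the other tested receptors were not called. Of the 10 genes, 9 had enough counts to be tested and 3 were called by edgeR's quasi-likelihood test with the lavage as a block (Benjamini-Hochberg adjusted p under 0.05 over all 18302 genes tested). Across all those genes 9.82% were called, 3.1% higher and 6.72% lower. Tlr1 did not pass the filter on low counts and was not tested. All 6 paired differences had 1 sign in 3 of the 10 genes, against 13.4% of the genes tested. In 0 of the 10 genes did all libraries of 1 fraction lie above all of the other, which held for 0.951% of the genes tested.

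The stretches around the transcription starts of the 3 called genes are shown because these genes moved in opposite directions. Promoter windows of 300 bases, 250 before and 50 after the start, came from RefSeq (build GRCm38.p6, whereas the submitters' processing notes name GRCm39) and matched 8 of the 10 genes. Tlr4 and Tlr7 had no window. Capitals mark matches to any of 5 motifs searched on both strands, namely GAAA and GAAA with any 2 bases between (interferon-stimulated response element), TTCNNNGAA (gamma-activated site), GGGA and CC with any 4 bases between (NF-kB), TGANTCA (AP-1) and GAGGAA (PU box), where N is any base. The Myd88 window is chr9:119339969-119340268, minus strand, the Tlr13 window chrX:106143025-106143324, plus strand, and the Tlr2 window chr3:83841559-83841858, minus strand.
Myd88: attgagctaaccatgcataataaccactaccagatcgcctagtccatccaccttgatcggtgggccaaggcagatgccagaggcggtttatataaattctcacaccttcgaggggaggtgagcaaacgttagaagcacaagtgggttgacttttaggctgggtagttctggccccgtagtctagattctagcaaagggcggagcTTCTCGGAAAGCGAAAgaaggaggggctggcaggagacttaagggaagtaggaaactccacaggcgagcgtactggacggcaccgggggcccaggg
Tlr13: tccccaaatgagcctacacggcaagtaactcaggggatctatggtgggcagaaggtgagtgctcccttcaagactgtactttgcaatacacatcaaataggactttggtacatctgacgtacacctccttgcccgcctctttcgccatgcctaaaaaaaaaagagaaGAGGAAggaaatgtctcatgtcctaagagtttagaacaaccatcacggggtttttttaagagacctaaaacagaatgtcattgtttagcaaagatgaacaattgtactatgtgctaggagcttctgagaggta
Tlr2: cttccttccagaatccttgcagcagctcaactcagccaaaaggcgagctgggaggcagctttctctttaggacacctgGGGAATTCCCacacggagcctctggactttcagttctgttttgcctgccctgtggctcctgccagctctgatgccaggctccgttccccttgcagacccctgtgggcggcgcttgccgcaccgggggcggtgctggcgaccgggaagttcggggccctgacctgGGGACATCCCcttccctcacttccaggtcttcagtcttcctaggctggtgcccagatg
In the Myd88 window the capitals are 2 overlapping matches, a gamma-activated site from 46 bases before the start and an interferon-stimulated response element from 40 bases before it. In the Tlr13 window they are a PU box, and in the Tlr2 window 2 NF-kB matches that read on both strands. Among all 32851 promoter windows, 3.44% held the interferon-stimulated response element, 8.3% the gamma-activated site, 20.7% the NF-kB letters, 7.81% the AP-1 letters and 28.3% the PU box. Matches were not particular to the called genes. The windows of Tlr6, which was not called, held 2 interferon-stimulated response elements and 2 gamma-activated sites, and that of Tlr3 held 3 NF-kB matches. Windows of Tlr1, Tlr8 and Tlr9 held PU boxes, among other matches. A match describes the letters and does not show that a factor binds there.

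TREM-1+ libraries held 8626701 to 19274912 counts in all and TREM-1- libraries 16513387 to 21234053. Trem1, the sorted antigen, had 73.5 to 130.7 CPM (counts per 1000000 library counts, scaled by the trimmed mean of M values, TMM) in TREM-1+ and 18.4 to 42.1 CPM in TREM-1- libraries, higher in all 6 pairs. All 8 eosinophil markers (Siglecf, Ccr3, Il5ra, Epx, Prg2, Alox15, Cebpe and Gata1) were tested, with Prg2 and Alox15 higher and Siglecf, Ccr3, Il5ra and Cebpe lower in TREM-1+ cells, and their summed level was 4187 to 6426 CPM in TREM-1+ and 4130 to 6452 CPM in TREM-1- libraries. In a bulk library fewer cells of a type and less RNA per cell cannot be told apart. On the first principal component (28.8% of the variance) lavages 1 and 2 were separate from the other 4, and their libraries resembled each other most, so the 3 called genes are also given within these sets. Fits on lavages 1 and 2 alone measure only the small spread between those closely alike pools. Their p-values can be low for that reason and are no stronger evidence than those of lavages 3 to 6. Whether each pool had its own mice is not stated in the labels, and p-values then measure only the spread between pools. Scaling by library totals alone, without TMM, gave a median log2 fold change over all genes of 0.13, against 0.00 with TMM. The split of called genes was then 1880 higher and 376 lower in TREM-1+ cells, in place of 568 and 1229. A change of scaling moves all genes by about the same amount. Values relative to the all-gene median thus return near those with TMM by construction, and are given only as a description.

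**Figure D1:**
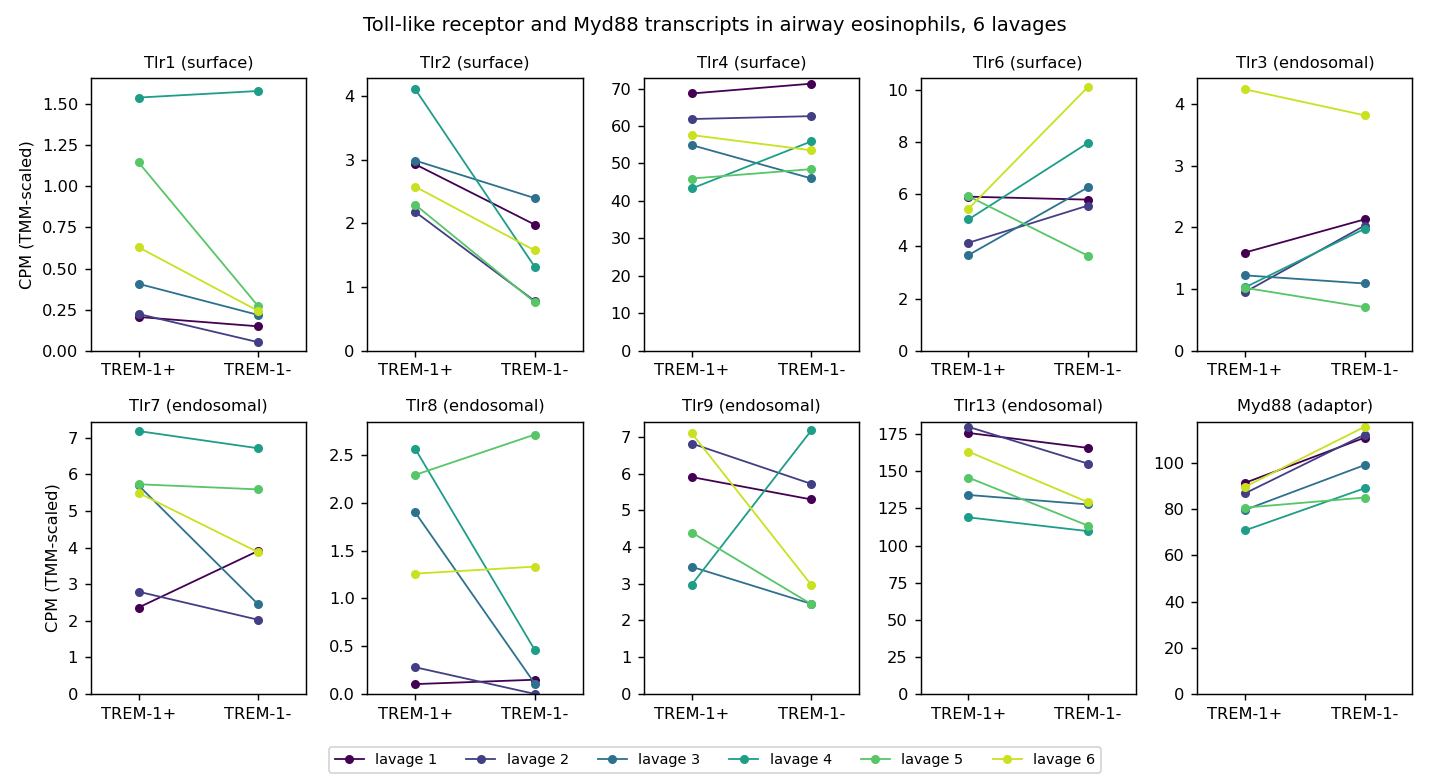
Level of each gene in CPM (y axis, from 0) in the TREM-1+ and TREM-1- library of each lavage, joined by a line and coloured by lavage. Myd88 was lower, and Tlr13 and Tlr2 were higher, in each TREM-1+ library than in its TREM-1- partner, while lines of the other genes run both ways.

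The adaptor gene Myd88 (gene ID 17874) fell in TREM-1+ eosinophils by 18.2%. Its level was 70.8 CPM at the lowest, 83.8 at the median and 91.4 at the highest in TREM-1+ libraries, against 85.1, 105.1 and 115.7 CPM in TREM-1- libraries. The fractions overlapped across lavages, although within each lavage the TREM-1+ library held less. This was a log2 fold change of -0.29 ± 0.05 (SE; adjusted p = 2.58e-05, edgeR). Paired differences ran from -0.37 to -0.08 on the log2 scale, the smallest in lavage 5. An exact permutation test that flips the signs of the 6 paired differences (two-sided) gave 0.0312 for Myd88, Tlr13 and Tlr2 alike, the smallest p that 64 patterns can give. Myd88 was called in lavages 1 and 2 alone (-0.31, edgeR adjusted p = 2.17e-05), in lavages 3 to 6 alone (-0.28, adjusted p = 0.00289) and with library totals alone (-0.16, or -0.29 relative to the all-gene median of that scaling, adjusted p = 0.0478). In the GENCODE vM21 annotation Myd88 overlaps Acaa1a, an acyl-CoA enzyme gene on the opposite strand, and the sources used here do not say whether reads were counted by strand. For Acaa1a the mean was 16.9 ± 1.42 CPM over TREM-1+ and 19.2 ± 3.09 CPM over TREM-1- libraries (SD, n = 6; log2 fold change -0.18 ± 0.09 SE, edgeR adjusted p = 0.294).

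Of the surface receptors, Tlr2 rose and the other tested genes were not called. Tlr2 (gene ID 24088), the lipopeptide receptor, was a low transcript in both fractions. TREM-1+ libraries held 2.18 CPM at the lowest, 2.75 at the median and 4.11 at the highest, against 0.76, 1.45 and 2.4 CPM in TREM-1- libraries. The value was higher in TREM-1+ in each pair, with some overlap between lavages. Its log2 fold change of 1.01 ± 0.28 (SE; adjusted p = 0.0155, edgeR) is a 2.01-fold difference that rests on 261 counts in TREM-1+ and 159 counts in TREM-1- libraries. The call was lost without lavage 2 (0.92, adjusted p = 0.0669), without lavage 4 (0.89, adjusted p = 0.0743) and without lavage 5 (0.91, adjusted p = 0.0529). It was also lost in lavages 1 and 2 alone (0.97, edgeR adjusted p = 0.115) and in lavages 3 to 6 alone (1.03, adjusted p = 0.128), with folds close to that of all 6.

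Tlr4 (gene ID 21898), the lipopolysaccharide receptor, was the surface receptor of the highest level in every library, and the fractions did not differ beyond the spread between lavages. TREM-1+ libraries had 43.3 CPM at the lowest, 56.2 at the median and 68.7 at the highest, against 46, 54.7 and 71.3 CPM in TREM-1- libraries. The 2 sets cover almost the same range. Tlr4 had a log2 fold change of -0.02 ± 0.06 (SE; adjusted p = 0.914, edgeR), with the TREM-1+ library lower in 4 of 6 pairs. Leaving out 1 lavage at a time moved it between -0.07 and 0.04, so the sign was not fixed. Tlr6 (gene ID 21899), a partner of Tlr2, averaged 5.02 ± 0.937 CPM over TREM-1+ and 6.55 ± 2.23 CPM over TREM-1- libraries (SD, n = 6). Its estimate of -0.34 ± 0.18 (log2, SE; adjusted p = 0.318, edgeR) was not called, and 4 of 6 pairs were lower. Tlr1 (gene ID 21897), the other partner of Tlr2, reached 0.21 to 1.54 CPM in TREM-1+ and 0.05 to 1.58 CPM in TREM-1- libraries, with 58 and 41 counts in all. Tlr1 and Tlr6 are close copies in sequence, and the sources used here do not say how shared reads were divided between them, so both values are uncertain.

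Tlr13 (gene ID 279572), an endosomal receptor of bacterial ribosomal RNA that humans lack, was the most abundant receptor transcript and rose by 14.8% in TREM-1+ eosinophils. TREM-1+ libraries held 119 CPM at the lowest, 154.5 at the median and 180 at the highest, against 109.7, 128.4 and 165.8 CPM in TREM-1- libraries. Levels differed more between lavages than between fractions, and the TREM-1+ library was higher in every pair. Tlr13 had a log2 fold change of 0.20 ± 0.04 (SE; adjusted p = 0.00137, edgeR), and paired differences ran from 0.07 in lavage 3 to 0.36 in lavage 5. It was called in lavages 1 and 2 alone (0.17, edgeR adjusted p = 0.0195) and in lavages 3 to 6 alone (0.22, adjusted p = 0.00824). With library totals alone the estimate was 0.33 (adjusted p = 2.19e-05), 0.19 above the all-gene median of that scaling.

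The other endosomal receptors were low transcripts and none was called. Tlr7 (gene ID 170743), a receptor of single-stranded RNA, averaged 4.88 ± 1.89 CPM over TREM-1+ and 4.09 ± 1.8 CPM over TREM-1- libraries (SD, n = 6; log2 fold change 0.26 ± 0.21 SE, edgeR adjusted p = 0.565). Tlr9 (gene ID 81897), the receptor of CpG DNA, averaged 5.11 ± 1.75 CPM over TREM-1+ and 4.34 ± 2 CPM over TREM-1- libraries (0.31 ± 0.23, adjusted p = 0.535). Both were higher in TREM-1+ in 5 of 6 pairs, Tlr7 with lavage 1 and Tlr9 with lavage 4 going the other way. Tlr3 (gene ID 142980), the receptor of viral duplex RNA, averaged 1.67 ± 1.28 CPM over TREM-1+ and 1.96 ± 1.08 CPM over TREM-1- libraries (-0.27 ± 0.30, edgeR adjusted p = 0.731). Its gene overlaps Gm45542 on the opposite strand in GENCODE vM21. In each of these genes the paired log2 differences varied more than their mean. They were 0.26 ± 0.63 for Tlr7, 0.29 ± 0.85 for Tlr9 and -0.26 ± 0.63 for Tlr3 (mean and SD, n = 6).

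Tlr8 (gene ID 170744), a relative of Tlr7, ranged from 0.1 to 2.57 CPM in TREM-1+ libraries, and from 0 counts in lavage 2 to 2.71 CPM in TREM-1- libraries. A count of 0 there allows a level of up to 0.156 CPM (3 counts). It was higher in TREM-1+ in lavages 2, 3 and 4 and lower in lavages 1, 5 and 6, and the estimate of 1.20 ± 0.56 (log2, SE) was not called (edgeR adjusted p = 0.225). Of the mouse Toll-like receptors outside the 10 genes, the flagellin receptor gene Tlr5 averaged 0.726 ± 0.492 CPM over TREM-1+ and 0.585 ± 0.24 CPM over TREM-1- libraries (SD, n = 6). Tlr12 averaged 1.11 ± 0.55 CPM over TREM-1+ and 0.798 ± 0.268 CPM over TREM-1- libraries. Tlr11 had 0 counts in all 12 libraries, which allows up to 0.148 to 0.308 CPM per library.

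**Figure D2:**
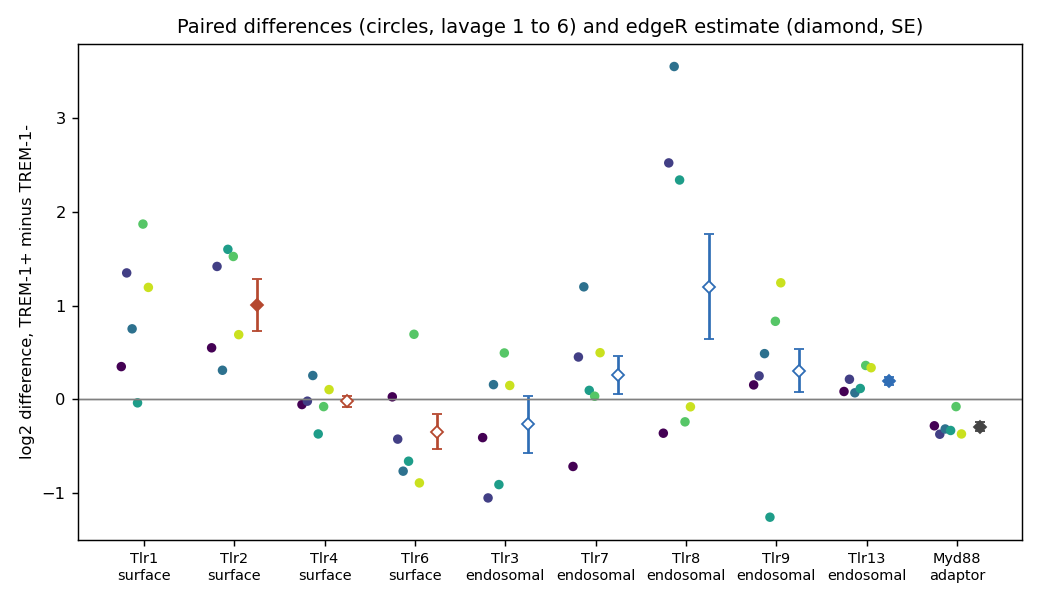
Log2 difference between the TREM-1+ and the TREM-1- library (y axis) for each gene, with circles for lavages 1 to 6 from left to right and a diamond for the edgeR log2 fold change with its SE, filled where called. Tlr13 and Myd88 have the narrowest spread, on opposite sides of 0, Tlr2 lies above 0 in all 6 lavages, and Tlr8 spans -0.36 to 3.54.

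Compared per transcript length, 3 genes stood far above the rest. Mean levels per kb of the longest GENCODE vM21 transcript over the 12 libraries were 37.7 CPM per kb for Myd88, 35.3 for Tlr13 and 13.7 for Tlr4. Next came Tlr6 (1.57 CPM per kb), Tlr9 (1.36), Tlr7 (1.15), Tlr2 (0.715), Tlr3 (0.412), Tlr8 (0.32) and Tlr1 (0.184). Tlr13 lay above Tlr4, and Tlr4 above Tlr6, in 12 of 12 libraries, with no overlap of their ranges. From Tlr6 down to Tlr1 each neighbour overlapped the next, and no neighbour was above the next in more than 9 of 12 libraries, so those places are not separated beyond the spread. Myd88 and Tlr13 overlapped and changed places with the fraction. Tlr13 was above Myd88 in 6 of 6 TREM-1+ libraries (means 37.7 ± 5.96 and 33.9 ± 3.13 CPM per kb, SD, n = 6), and Myd88 was above Tlr13 in 6 of 6 TREM-1- libraries (41.5 ± 5.27 and 32.9 ± 5.55 CPM per kb). That exchange depends on the length used, since per coding kb Myd88 had 104.3 and Tlr13 48.2 CPM on average, with the order of all 10 genes kept.

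**Figure D3:**
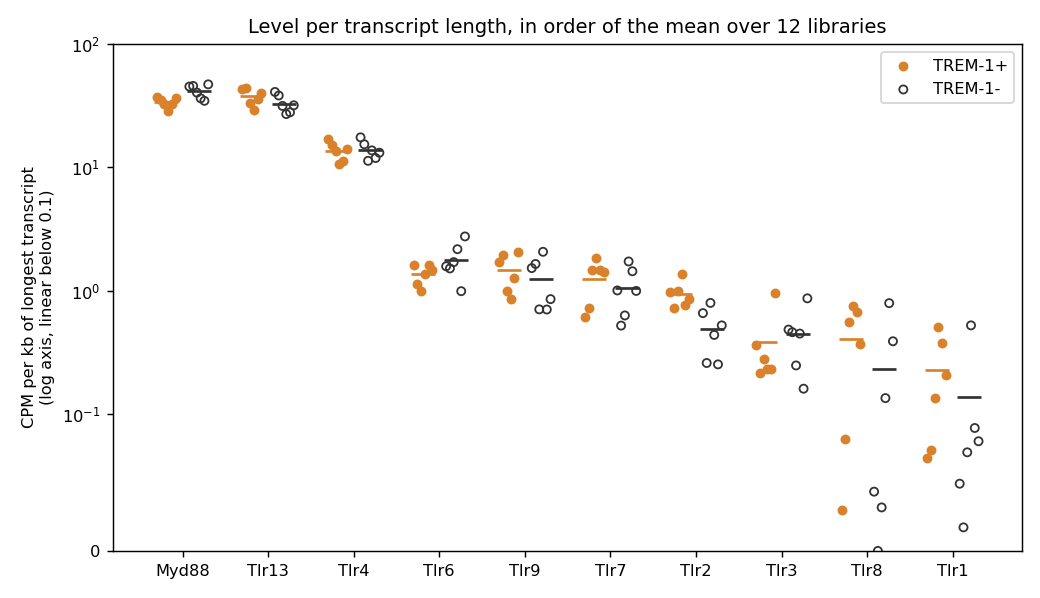
Level per kb of the longest transcript (y axis, logarithmic, linear below 0.1) of each gene in 6 TREM-1+ (filled) and 6 TREM-1- (open) libraries, with lines at the means, in order of the mean. Myd88 (37.7), Tlr13 (35.3) and Tlr4 (13.7 CPM per kb) lie apart from the other 7 genes, which overlap their neighbours.

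Tlr4 and Tlr13 together made up 89.2 ± 2.67% of the summed receptor level per kb in TREM-1+ and 89.5 ± 3.01% in TREM-1- libraries (SD, n = 6). Summed over the 5 endosomal receptors, the level was 41.2 ± 5.82 CPM per kb in TREM-1+ and 35.9 ± 5.32 CPM per kb in TREM-1- libraries, higher in TREM-1+ in 6 of 6 pairs. Tlr13 alone was 91.3 ± 2.19% of that sum in TREM-1+ and 91.5 ± 3.21% in TREM-1- libraries. The 4 surface receptors summed to 16.1 ± 2.12 CPM per kb in TREM-1+ and 16.2 ± 2.39 CPM per kb in TREM-1- libraries, higher in TREM-1+ in 3 of 6 pairs. Surface receptors held 28.2 ± 1.78% of the total in TREM-1+ and 31.2 ± 2.08% in TREM-1- libraries, a lower share in 5 of 6 pairs, with lavage 3 the exception. These sums follow Tlr13 and Tlr4 and carry no test.

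Counted gene by gene, surface and endosomal receptors did not separate. The median paired log2 difference of the surface receptors minus that of the endosomal receptors was 0.21 ± 0.42 over lavages (SD, n = 6), positive in lavages 1, 2, 5 and 6 and negative in lavages 3 and 4. Among tested genes the median log2 fold change was -0.02 over 3 surface and 0.26 over 5 endosomal receptors, beside 0.00 over all genes tested. The order of the 2 classes is thus opposite in the 2 summaries, the first of which includes Tlr1.

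**Figure D4:**
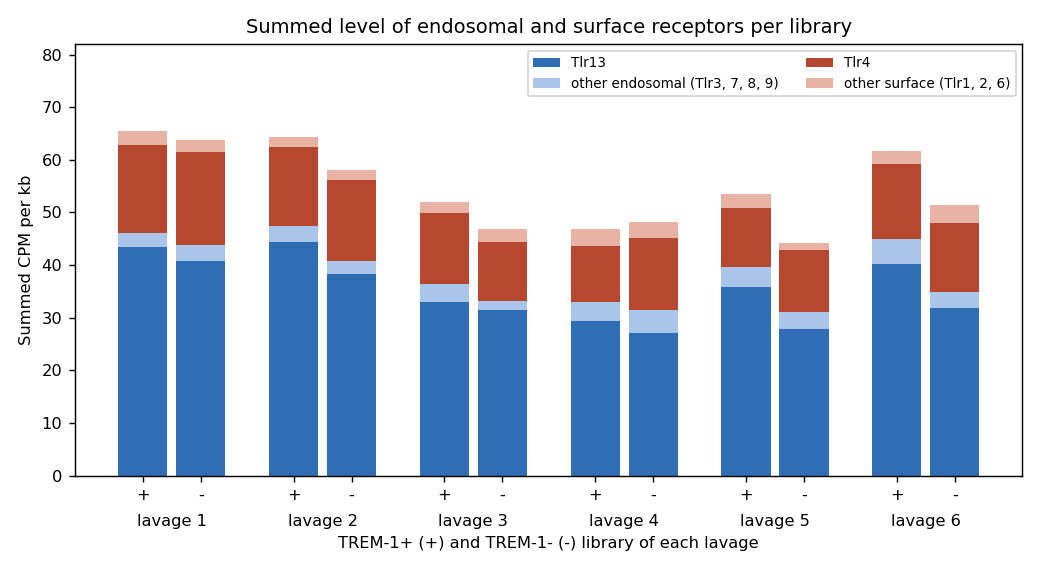
Summed level per kb (y axis, bars from 0) of endosomal (blue) and surface (red) receptors in the TREM-1+ and TREM-1- library of each lavage, with Tlr13 and Tlr4 in the darker shade. Tlr13 and Tlr4 fill 84.5% to 92.4% of every bar, and the blue part is taller in each TREM-1+ bar than in its TREM-1- partner.

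Other genes of the pathway, in lists chosen by function, mostly did not pass the test. Over all genes tested 3.1% were called higher and 6.72% lower, the shares to set beside the counts of every list below. Among 7 co-receptor and ligand-binding genes, 0 were called higher and 1 lower (median log2 fold change 0.15). The lower one was Cd180, which encodes a Toll-like protein that restrains Tlr4 (mean 2.74 ± 1.29 CPM over TREM-1+ and 4.87 ± 1.55 CPM over TREM-1- libraries, SD, n = 6). Its log2 fold change was called at -0.86 ± 0.23 (adjusted p = 0.013, edgeR). The call was lost, with the direction kept, without lavage 4 (-0.72, adjusted p = 0.092), without both lavages 3 and 4 (-0.47, 0.286), in lavages 1 and 2 alone (-0.68, 0.175) and in lavages 3 to 6 alone (-0.96, 0.0668). Partners of Tlr4 in binding lipopolysaccharide were low beside it. Ly96, which encodes MD-2, had 3.1 ± 0.34 CPM per kb in TREM-1+ and 2.4 ± 1.02 CPM per kb in TREM-1- libraries, and Cd14 had 0.844 ± 0.4 CPM per kb in TREM-1+ and 0.475 ± 0.183 CPM per kb in TREM-1- libraries (SD, n = 6). Tlr4 itself had 13.6 ± 2.35 CPM per kb in TREM-1+ and 13.8 ± 2.3 CPM per kb in TREM-1- libraries. Neither Ly96 (log2 fold change 0.42 ± 0.29, edgeR adjusted p = 0.482) nor Cd14 (0.76 ± 0.41, adjusted p = 0.316) was called.

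Receptor folding, trafficking and processing genes had 5 of 13 members higher and 0 lower (median 0.21), beside 3.1% higher over all genes tested. Ctss, encoding the endosomal protease cathepsin S, rose in 6 of 6 pairs to 73.4 ± 28.3 CPM in TREM-1+, against 52.5 ± 21.2 CPM in TREM-1- libraries (log2 fold change 0.48 ± 0.08 SE, edgeR adjusted p = 2.98e-04). Ctsl, for cathepsin L, rose by 0.35 ± 0.11 (adjusted p = 0.0353) and Hsp90b1, for the chaperone gp96 that folds Toll-like receptors, by 0.11 ± 0.03 (adjusted p = 0.0356). Their calls depended on the lavages used. Ctsl had 0.52 in lavages 1 and 2 alone (edgeR adjusted p = 0.00949) and 0.27 in lavages 3 to 6 alone (adjusted p = 0.422). Hsp90b1 had 0.06 in lavages 1 and 2 alone (adjusted p = 0.543) and 0.14 in lavages 3 to 6 alone (adjusted p = 0.0409). Leaving out any 1 of lavages 1 to 5 gave Ctsl log2 fold changes of 0.32 to 0.38 (adjusted p 0.05 to 0.151), and leaving out any 1 of lavages 2 to 6 gave Hsp90b1 0.10 to 0.12 (adjusted p 0.0526 to 0.112). The other called genes were Cnpy3, encoding a co-chaperone of gp96, and Ctsk, encoding cathepsin K. Their folds depended on the lavages, with Cnpy3 at 0.02 in lavages 1 and 2 and 0.32 in lavages 3 to 6, and Ctsk at -0.57 in lavages 1 and 2 and 0.82 in lavages 3 to 6. Neither was called without lavage 4, 5 or 6 (adjusted p 0.139 to 0.215) or by DESeq2 (0.0545 for Cnpy3 and 0.081 for Ctsk), and Ctsk was not called without lavage 3 either (0.132). Unc93b1, the transporter of endosomal receptors, averaged 76.1 ± 14.2 CPM over TREM-1+ and 78.5 ± 15 CPM over TREM-1- libraries (log2 fold change -0.04, edgeR adjusted p = 0.753).

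Downstream of the receptors, 2 of 21 kinase and ubiquitin ligase genes were lower and 1 higher (median -0.02), and 1 of 4 tested genes for other adaptors was lower (median -0.06). Over all genes tested 6.72% were lower and 3.1% higher, so the kinase and ligase counts are near those shares. Irak2, a kinase recruited by MyD88, fell in 6 of 6 pairs to 126.4 ± 6.77 CPM in TREM-1+, against 151.4 ± 6.65 CPM in TREM-1- libraries (log2 fold change -0.26 ± 0.04 SE, edgeR adjusted p = 6.61e-06). Ikbkb, an NF-kB activating kinase (-0.19 ± 0.04, adjusted p = 0.00327), and the adaptor gene Pik3ap1 (-0.15 ± 0.03, adjusted p = 0.00194) fell too. With library totals alone these 3 genes were not called (adjusted p = 0.0775 for Irak2, 0.558 for Ikbkb and 0.766 for Pik3ap1). Relative to the all-gene median of that scaling they stood at -0.27, -0.19 and -0.16. That these are close to the values with TMM follows from how they are computed and does not bear on the lost calls. The 4 lavages 3 to 6 alone gave Ikbkb -0.16 (adjusted p = 0.088). Traf3, a ubiquitin ligase gene of the interferon branch, rose by 0.13 ± 0.04 (edgeR adjusted p = 0.0366). The Traf3 call was lost without lavage 1, 3, 4 or 5 (adjusted p 0.0862 to 0.134), with DESeq2 (0.0516) and with limma-voom (0.0518), at folds of 0.11 to 0.14. It was also lost in lavages 1 and 2 alone (0.08, edgeR adjusted p = 0.506), in lavages 3 to 6 alone (0.16, 0.0521) and without both lavages 3 and 4 (0.11, 0.269). Irak1, Irak4 and Traf6 had log2 fold changes of -0.05, 0.03 and -0.02 and were not called, and neither were the adaptor genes Tirap (-0.02), Ticam1 (-0.09) and Ticam2 (0.02).

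Of 9 transcription factor genes 2 were lower and 0 higher (median -0.02). Irf7, the interferon regulatory factor that works with MyD88 below the endosomal receptors, fell in 6 of 6 pairs to 175.6 ± 70.4 CPM in TREM-1+, against 223 ± 92.5 CPM in TREM-1- libraries (log2 fold change -0.34 ± 0.04 SE, edgeR adjusted p = 1.31e-08). Rel, an NF-kB subunit gene, fell by 0.27 ± 0.04 (adjusted p = 5.74e-06). Negative regulators had 4 of 15 lower and 1 higher (median 0.04). Trafd1, a feedback inhibitor of TRAF signalling, had a log2 fold change of -0.43 ± 0.04, Socs1 one of -0.33 ± 0.04 and Inpp5d, encoding the phosphatase SHIP-1, one of -0.24 ± 0.03 (edgeR adjusted p 4.95e-10 to 1.16e-06). Inpp5d was not called with library totals alone (adjusted p = 0.0684), at -0.25 relative to the median of that scaling. Zc3h12a, encoding an RNase that degrades cytokine transcripts, rose by 0.24 ± 0.06 (adjusted p = 0.00821, but 0.0513 without lavage 4 and 0.444 in lavages 1 and 2 alone).

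Among 6 other receptors that use MyD88, 1 was lower and 0 higher (median -0.01), namely Il1rl1 (-0.29 ± 0.04, edgeR adjusted p = 2.48e-07), which encodes the interleukin-33 receptor. Of 15 inflammatory target genes 11 were tested, with 2 higher and 2 lower (median 0.03). Il1b (1.19 ± 0.07) and Ccl3 (0.56 ± 0.13) rose while Ier3 (-0.65 ± 0.08) and Tnf (-0.50 ± 0.12) fell, with edgeR adjusted p from 1.97e-13 to 0.00361. The 4 lavages 3 to 6 alone gave 0.51 for Ccl3 (adjusted p = 0.159) and -0.40 for Tnf (adjusted p = 0.141). Beside Myd88 and Irf7, a list of 12 interferon-inducible genes had 9 lower and 0 higher in TREM-1+ cells (median -0.59), those with the smallest p being Ifi47 (-0.70), Cmpk2 (-0.70) and Rsad2 (-0.86). That shift was known from earlier results on these libraries and is no independent evidence.

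**Figure D5:**
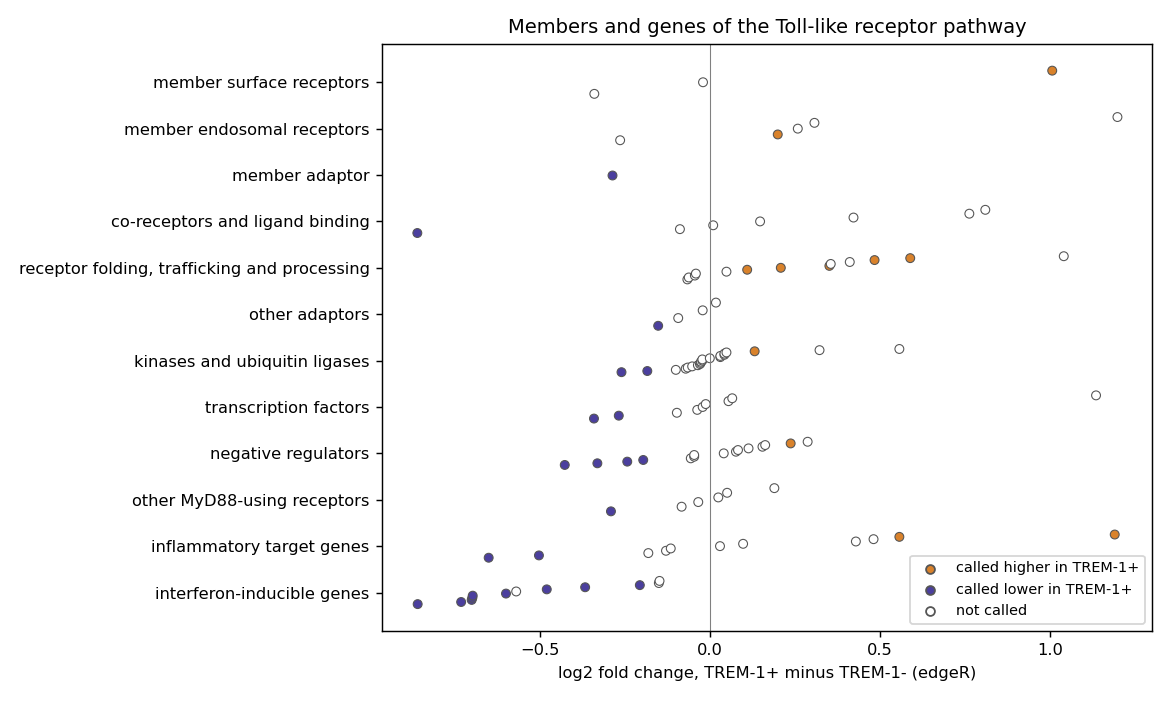
Log2 fold change (x axis, TREM-1+ minus TREM-1-, edgeR) of each tested gene in the lists named on the y axis, with orange for genes called higher, purple for genes called lower and white for genes not called. Most pathway genes lie near 0, 9 of the 12 interferon-inducible genes are purple, and called genes of the trafficking list are all orange.

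Markers of some other cells moved with the fraction. Over all genes tested 3.1% were called higher and 6.72% lower, the shares to set beside the counts below. Of 9 neutrophil markers 7 were tested, and 6 were called higher (S100a8, S100a9, Ly6g, Ltf, Cxcr2 and Csf3r) and Retnlg lower in TREM-1+ cells. The summed level was 1297 to 2169 CPM in TREM-1+ and 1528 to 2260 CPM in TREM-1- libraries, higher in TREM-1+ in 1 of 6 pairs. Most of that sum was Retnlg, with means of 1244 CPM over TREM-1+ and 1603 CPM over TREM-1- libraries. Of 8 alveolar macrophage markers 5 were tested and 2 were higher (Pparg and Car4). Sums over that list were 430.1 to 971.9 CPM in TREM-1+ and 299.5 to 744.3 CPM in TREM-1- libraries, higher in 6 of 6 pairs. In that list Chil3 averaged 305.1 CPM over TREM-1+ and 150.8 CPM over TREM-1- libraries, Mrc1 12.2 CPM over TREM-1+ and 5.75 CPM over TREM-1-, and Ear2 22.9 CPM over TREM-1+ and 42.5 CPM over TREM-1-, none of them called (edgeR adjusted p = 0.0877, 0.0829 and 0.0505). Marco, Fabp4 and Fabp1 averaged under 0.2 CPM in both fractions. Of 9 monocyte and interstitial macrophage markers 6 were tested, with 3 higher and 1 lower. Sums over these 9 were 644.6 to 1234 CPM in TREM-1+ and 734.2 to 1329 CPM in TREM-1- libraries, higher in TREM-1+ in 2 of 6 pairs. C1qa averaged 0.215 CPM over TREM-1+ and 0.212 CPM over TREM-1- libraries. Markers of plasmacytoid dendritic cells, known for high Tlr7 and Tlr9, had 2 of 5 tested, 0 called and sums of 14.3 to 26.9 CPM in TREM-1+ and 13.8 to 27.7 CPM in TREM-1- libraries. Among 6 B cell markers 2 were tested and 0 called (7.8 to 16.1 CPM in TREM-1+ and 8.11 to 14.6 CPM in TREM-1- libraries). T and innate lymphoid cell markers had 7 of 8 tested and 5 higher (14.9 to 104.6 CPM in TREM-1+ and 13 to 67 CPM in TREM-1- libraries). Of 7 conventional dendritic cell markers 6 were tested and 1 was higher (H2-Ab1). Of 6 mast cell and basophil markers 2 were tested and 1 was higher (Kit, with Mcpt4 and Tpsb2 at 0 counts). Of 7 airway epithelium markers only 1 was tested and 0 were called, with Krt5 at 0 counts. The part of such cells in the differences of Tlr2, Tlr13 and Myd88 was not tested.

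Genes with the most similar pattern were sought among 10967 genes of at least 5 CPM, by the Pearson correlation of log2 CPM centred within each lavage over the 12 libraries, which describes 6 paired differences. For Myd88 these were Sipa1l1 (r = 0.996), Jak1 (0.993) and Sypl (0.992), which were lower in TREM-1+ cells. For Tlr13 they were Slf2 (0.991), Dph6 (0.983) and Rbbp6 (0.976), and for Tlr2 Eprs (0.991), 4930543I11Rik (0.988) and Kat7 (0.985). Such values are common where a gene moves 1 way in every pair, since 720 genes had r above 0.9 with Myd88, 142 with Tlr2 and 96 with Tlr13.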

How the data were processed

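RNA of sorted airway eosinophils (12 libraries, TREM-1+ and TREM-1- from each of 6 pooled lavages) was sequenced as 100 bp paired ends from stranded, ribosome-depleted total RNA, per the labels' protocols. The authors deposited estimated counts per gene, written as whole numbers and rounded here before use, which changed nothing. GRCm39, kallisto 0.45.0, edgeR 3.42.4 and R 4.3.0 appear, with no role given, per the submitters' processing notes. A deposited table of log2 CPM for 17934 genes was matched to within 5e-09 by TMM-scaled log2 CPM with a prior count of 1 and was used only for that check.

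The test across genes was that of edgeR 4.0.16 under R 4.3.3 (TMM, filterByExpr with a minimum count of 10 and minimum total of 15, robust quasi-likelihood F test), coded TREM-1+ minus TREM-1-, with the SE derived from F. The code of the fit was run on simulated counts, whose non-zero true changes were larger than those of Myd88 and Tlr13. That run checks the code and gives no evidence on the genes here. The lavage was a block because the design text states that both fractions came from the same lavage. Deviations from the group means correlated at 0.127 to 0.502 within lavages. The highest correlation with a TREM-1- library of another lavage was 0.069 to 0.491, and in lavage 3 it was above that within the lavage (0.148 against 0.127). Within a fraction the chi-square per gene, which is 1 under counting noise alone, was 6.95 in TREM-1+ and 5.3 in TREM-1- between lavages 1 and 2, and 21.1 to 197.1 for all other pairs, so no libraries were merged. Levels between genes are per kb of the longest GENCODE vM21 transcript. DESeq2 1.42.0, limma 3.58.1, other scalings, filters and left-out lavages were alternatives.

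The members and lists were chosen with earlier results of these data known. From each list, the 3 called genes of smallest p per direction were named, besides all members and, for Myd88 and each called member, the 3 most similar genes. Any other gene was named after its values were seen. Floors of 3 counts cover counting error only.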

Additional observations from a re-analysis of the deposited data

Results flagged for a closer look

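In 30 sets of 6 values (the level in each fraction and the paired difference, for each of the 10 genes), 3 had a value far from the other 5. Chance alone gives about 1 such set in 20. Tlr1 in TREM-1- libraries was highest in lavage 4, at 1.58 CPM, with the next at 0.271 CPM. Tlr3 in TREM-1+ libraries was highest in lavage 6, at 4.23 CPM, with the next at 1.59 CPM. The paired log2 difference of Myd88 was closest to 0 in lavage 5, at -0.0762, with the next at -0.28. Without lavage 5 the log2 fold change of Myd88 was -0.33 (edgeR adjusted p = 1.08e-05).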

How the results depend on the processing

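Myd88 and Tlr13 kept their direction in 15 of 15 alternatives and their call in 14 of 15 each, the exception being the fit with no replicate block. Ignoring the pairing by lavage, 83 genes were called in all, 27 higher and 56 lower, and 0 of the 10 genes (0 higher and 0 lower). Log2 fold changes were then -0.29 for Myd88 (edgeR adjusted p = 0.346), 0.20 for Tlr13 (0.831) and 0.94 for Tlr2 (0.338), and 2 of the 34 listed genes called in the paired fit remained called. Of the 10 genes, those called higher numbered 1 in lavages 1 and 2 alone and 1 in lavages 3 to 6 alone, and 1 to 2 when 1 lavage was left out, since Tlr2 was lost. Called genes over the whole table numbered 1168 in lavages 3 to 6 alone (366 higher and 802 lower), and without lavages 3 and 4 those higher numbered 347. These fits hold fewer libraries. With library totals alone 1880 genes were higher and 376 lower. Tlr2 kept its direction in all 15 alternatives and its call in 9. DESeq2 gave Tlr3 and Tlr8 no adjusted p, and Tlr8 was not tested in 3 fits with fewer lavages. The surface minus endosomal median was 0.08 to 0.48 across the alternatives, but single lavages ran from -0.30 to 0.75. Other scalings shift both classes alike and could hardly move it. Depth limits Tlr1 (58 counts in TREM-1+ and 41 in TREM-1- libraries), Tlr8 (118 and 84), Tlr3 (166 and 208) and Tlr2 (261 and 159).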
